A study of Mus musculus with 6 samples.

Results

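The interferon-linked genes Parp9, Parp10, Parp11, Parp12, Parp14 and Dtx3l were followed in ruxolitinib-treated and untreated mouse bone marrow progenitors, with Parp1 and Parp2 as PARP genes that are not driven by interferon. The 8 genes were taken by symbol from a table of 24421 genes, all 8 were found, and all 8 passed the filter on low counts among 13411 tested genes. They were named as genes known from other work to respond to interferon, a link not measured here, and were selected on a list whose RUX minus untreated differences in these same pools were already known, Parp14 among the largest of them. The differences between the groups given for them are therefore descriptions and carry no test. RNA came from Lin-CD117+ cells, which lack lineage antigens and carry the KIT receptor, sorted from bone marrow of female CByB6F1 hybrid mice aged 2 to 5 months. There were 3 RUX pools (4 to 6) from mice treated with ruxolitinib, an inhibitor of the kinases JAK1 and JAK2, and 3 untreated pools (1 to 3). No genetic change is named for either group, each pool joined cells of 2 to 3 mice of its own group, and the labels state neither how much drug was given nor for how long. The study compared the transcriptomes of these cells with and without the drug.

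PARP enzymes transfer ADP-ribose from NAD+ to proteins, either as single units or as chains. Parp1 and Parp2 encode the chain-forming enzymes that DNA breaks activate. Interferons signal through JAK kinases to STAT transcription factors, whose complexes bind the interferon-stimulated response element (ISRE) or the gamma-activated site (GAS); genes of several PARPs that add single ADP-ribose units are induced along this route. In human cells PARP9 works as a partner of DTX3L, an E3 ubiquitin ligase.

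The sequence around the start sites is shown first, because STAT complexes can act there. Its coordinates also show where the counted exons begin relative to those sites. RefSeq windows of GRCm38.p6, the assembly that UCSC calls mm10, run from 250 bases before to 50 bases after a start site. They were matched by symbol for 5 of the 8 genes (6 windows), Parp11 having 2; Parp9, Parp10 and Parp14 had none in the table. The windows were searched on both strands for the ISRE letters GAAANNGAAA and the GAS letters TTCNNNGAA. Each sequence is written 5′ to 3′ on the gene's own strand, and capitals mark a match. The Parp11 windows are chr6:127446590-127446889 (plus strand, upstream start) and chr6:127453377-127453676 (plus strand, downstream start), the Dtx3l window is chr16:35938978-35939277 (minus strand), the Parp12 window is chr6:39118300-39118599 (minus strand) and the Parp1 window, shown as the contrast, is chr1:180568641-180568940 (plus strand).
Parp11 upstream start: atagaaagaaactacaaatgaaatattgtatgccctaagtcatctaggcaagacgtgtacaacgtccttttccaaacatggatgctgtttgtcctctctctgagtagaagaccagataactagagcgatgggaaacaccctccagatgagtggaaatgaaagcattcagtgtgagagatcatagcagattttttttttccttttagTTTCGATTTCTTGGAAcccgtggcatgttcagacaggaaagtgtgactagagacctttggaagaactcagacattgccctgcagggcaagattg
Parp11 downstream start: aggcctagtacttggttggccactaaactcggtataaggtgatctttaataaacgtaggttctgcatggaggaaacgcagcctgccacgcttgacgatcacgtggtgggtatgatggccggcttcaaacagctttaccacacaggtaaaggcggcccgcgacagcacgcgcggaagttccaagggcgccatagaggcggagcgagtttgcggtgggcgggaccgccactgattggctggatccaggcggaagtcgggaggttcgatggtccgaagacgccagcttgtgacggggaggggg
Dtx3l: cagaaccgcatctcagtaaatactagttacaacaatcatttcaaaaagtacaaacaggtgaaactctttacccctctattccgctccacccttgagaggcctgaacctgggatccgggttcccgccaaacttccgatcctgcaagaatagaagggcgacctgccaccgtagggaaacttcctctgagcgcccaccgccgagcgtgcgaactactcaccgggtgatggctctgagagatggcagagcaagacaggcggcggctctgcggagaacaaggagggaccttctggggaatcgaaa
Parp12: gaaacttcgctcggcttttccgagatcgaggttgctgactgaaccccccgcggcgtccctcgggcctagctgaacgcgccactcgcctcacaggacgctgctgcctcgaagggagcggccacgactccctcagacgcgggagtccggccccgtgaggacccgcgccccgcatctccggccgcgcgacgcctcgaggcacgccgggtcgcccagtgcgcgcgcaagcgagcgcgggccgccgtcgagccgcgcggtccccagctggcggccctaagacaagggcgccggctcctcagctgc
Parp1: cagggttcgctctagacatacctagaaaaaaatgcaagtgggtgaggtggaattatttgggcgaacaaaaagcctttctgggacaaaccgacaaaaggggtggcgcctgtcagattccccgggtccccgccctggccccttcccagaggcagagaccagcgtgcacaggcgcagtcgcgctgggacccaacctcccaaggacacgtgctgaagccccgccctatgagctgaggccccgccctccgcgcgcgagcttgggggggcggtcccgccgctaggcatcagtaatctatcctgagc

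The upstream Parp11 window was the only one of the 6 with a match, and it held both motifs. The ISRE match lay on the opposite strand, reads GAAATCGAAA there, and took positions −44 to −35 from the start site. The GAS match, TTCTTGGAA, took positions −37 to −29 and shared 3 bases with it. Of 32851 RefSeq windows of this length, 3.44% held the ISRE letters, 8.30% the GAS letters and 0.454% both. Among 8 windows of 8 other PARP family genes, 1 held ISRE letters (Parp4) and 1 GAS letters (Parp16). A match is a description and not a bound site. A window without a match does not show that its gene lacks such sites, since only these short windows and exact letters were searched. The annotation used for counting starts Parp11 at base 127453723 of chromosome 6, which is 96 bases after the downstream start site and 6883 bases after the upstream one, so the first exon of the upstream start added no counts of its own to the Parp11 values that follow.

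The members differed far more from each other than between the groups. Levels between genes are compared as CPM, counts scaled to library size, per kilobase of counted exon, over all 6 pools. Parp1 was highest at 80.7 ± 10.4 CPM per kb (mean ± SD, n = 6 pools, as in the rest of this order), followed by Parp2 at 42.2 ± 2.66. Dtx3l stood at 11.9 ± 1.32 and Parp9 at 11.5 ± 1.82, with overlapping ranges. Parp11 stood at 6.32 ± 1.07 and Parp10 at 6.05 ± 0.654, again with overlapping ranges. Parp12 followed at 3.91 ± 0.524, and Parp14 was lowest at 2.23 ± 0.602. Those last ranges touched as well (3.14 to 4.55 for Parp12 and 1.60 to 3.27 for Parp14), although Parp12 was above Parp14 in 6 of 6 pools. All other neighbours in this order had ranges that did not overlap. Within the summed level per kb of the 6 interferon-linked genes, Parp9 and Dtx3l took 25.5 to 33.7% and 27.1 to 32.0% in any pool, and Parp14 took 4.07 to 6.79%.

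**Figure D1:**
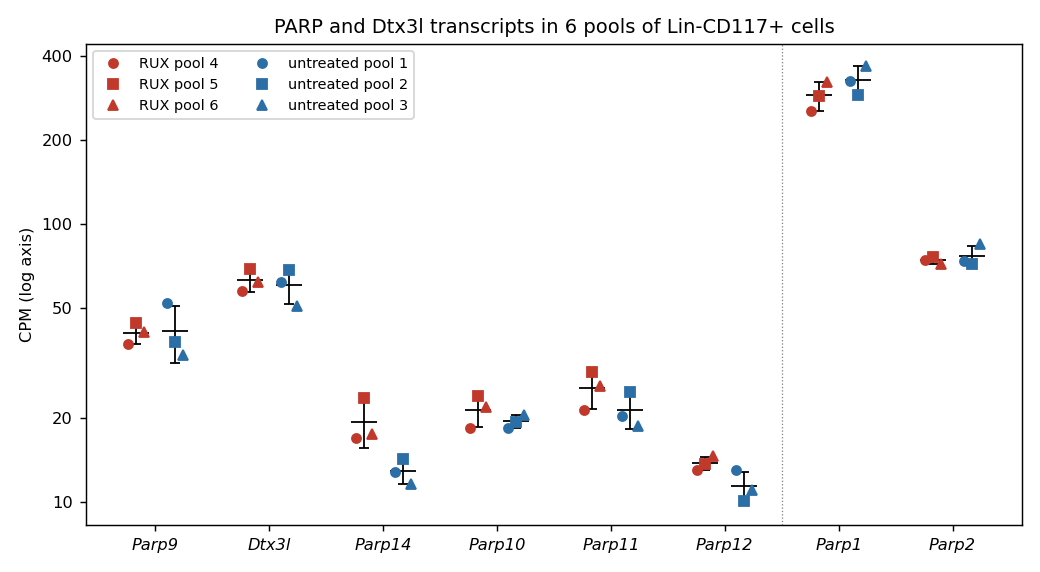
CPM (log axis) of each gene in RUX pools 4 to 6 (red, left of each pair) and untreated pools 1 to 3 (blue, right of each pair); each symbol is 1 pool, the black dash the mean and the bar the SD of 3 pools. The RUX pools of Parp14 (17.0 to 23.7 CPM) and Parp12 (13.1 to 14.7 CPM) lie above their untreated pools (11.6 to 14.3 and 10.1 to 13.0 CPM), while for the other 6 genes the groups overlap.

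Parp14 had the largest log2 fold change of the members. It encodes a large ADP-ribosyltransferase with macrodomains that bind ADP-ribose, known in mouse lymphocytes as a coactivator of STAT6. Parp14 had 17.0, 23.7 and 17.6 CPM in RUX pools 4, 5 and 6, against 12.8, 14.3 and 11.6 CPM in untreated pools 1, 2 and 3. Every RUX pool lay above every untreated pool, and RUX pool 5 was well above the other RUX pools. The means were 19.4 ± 3.72 CPM in RUX pools and 12.9 ± 1.32 CPM in untreated pools (SD, n = 3 each), and the log2 fold change, RUX minus untreated, was 0.59 ± 0.19 (SE; 95% interval 0.19 to 0.99, not adjusted for the number of genes). Of all tested genes, 2.69% had a higher log2 fold change. Parp14 was chosen with this difference known, so nothing is read from that rank or from the interval. The value was 0.42 without RUX pool 5 and 0.68 without RUX pool 4 or without untreated pool 2. Counts of 358 to 1156 read pairs stood behind these values, for a counting error of 2.94 to 5.29% per pool, against a coefficient of variation of 19.1% among RUX pools and 10.3% among untreated pools.

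Parp9 and Dtx3l, head to head on the same chromosome as Parp14, showed little difference between the groups. In mm10, Parp14 lies at chr16:35832878-35871382 (minus strand, 17 exons), Dtx3l at chr16:35926515-35939027 (minus strand, 5 exons) and Parp9 at chr16:35938470-35972621 (plus strand, 11 exons). Dtx3l and Parp9 run in opposite directions and overlap at their starts by 558 bases, 334 of them exonic in both. Counting used no strand, so reads of that stretch cannot be assigned between them; by the counting tool's defaults, pairs that fall on both genes were left out. The shared 334 bases stay in the exon lengths used for levels per kb, 5181 bases for Dtx3l and 3564 for Parp9. Both levels are therefore somewhat too low, more so for Parp9, which also touches their order, their shares and their ratio. Parp14 begins 55132 bases from Dtx3l with no other counted gene between them.

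Dtx3l measured 57.5, 68.9 and 61.7 CPM in RUX pools 4, 5 and 6, against 62.0, 68.2 and 50.7 CPM in untreated pools 1, 2 and 3. The groups overlapped and untreated pool 3 was the lowest pool. Its log2 fold change was 0.06 ± 0.15 (SE; 95% interval −0.28 to 0.39), with a sign that turned without untreated pool 3 (−0.05) or RUX pool 5 (−0.02). Parp9 measured 36.9, 43.9 and 40.8 CPM in RUX pools 4, 5 and 6, against 52.0, 37.5 and 33.9 CPM in untreated pools 1, 2 and 3. Here the untreated pools held both the highest and the lowest value. The log2 fold change of Parp9 was −0.02 ± 0.18 (SE; 95% interval −0.40 to 0.36) and ran from −0.14 to 0.18 over the settings tried, so no direction is given for it.

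Ratios within a pool set the 3 genes of the locus against each other. Dtx3l over Parp9, per base of exon, was 1.07, 1.08 and 1.04 in RUX pools 4, 5 and 6, against 0.82, 1.25 and 1.03 in untreated pools 1, 2 and 3. The RUX pools lay close together and the untreated pools lay on both sides of them. Parp14 over Dtx3l was 0.211, 0.246 and 0.203 in RUX pools 4, 5 and 6, against 0.147, 0.149 and 0.164 in untreated pools 1, 2 and 3, without overlap. This ratio averaged 0.22 ± 0.0225 in RUX pools and 0.153 ± 0.00889 in untreated pools (SD, n = 3 each). It repeats the difference in Parp14 on another scale, and does not depend on library scaling. The genes that flank the locus, the importin gene Kpna1 and Hspbap1, had log2 fold changes of −0.17 ± 0.21 and 0.34 ± 0.19 (SE), with an edgeR adjusted p of 1 each; Hspbap1, 4415 bases from Parp14, measured 9.43 to 10.8 CPM in RUX pools and 7.04 to 8.46 CPM in untreated pools.

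**Figure D2:**
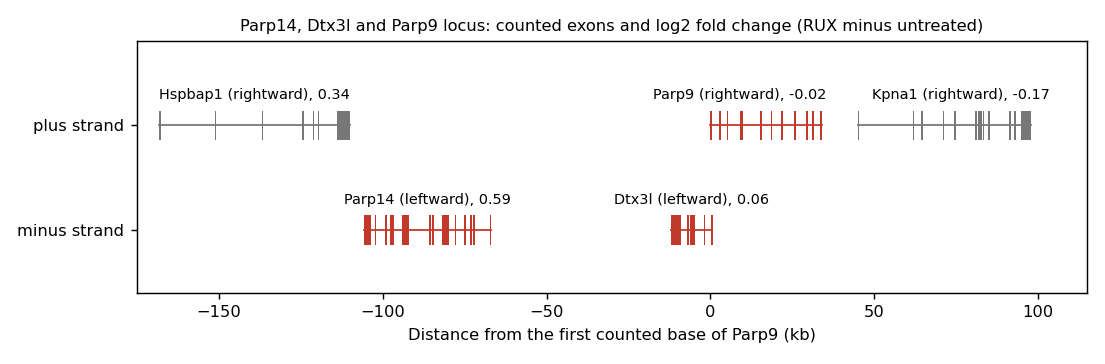
Counted exons (boxes; those under 0.5 kb are drawn 0.5 kb wide) of the genes around Parp9 on chromosome 16, by strand, with distance in kb from the first counted base of Parp9 and the log2 fold change, RUX minus untreated, after each name. Parp14 is at 0.59, and Dtx3l and Parp9 are at 0.06 and −0.02.

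Parp12, Parp11 and Parp10 had log2 fold changes between those of Dtx3l and Parp14. Parp12, a zinc finger PARP that restricts the replication of several RNA viruses, lies at chr6:39086412-39118349 (minus strand, 12 exons). It measured 13.1, 13.7 and 14.7 CPM in RUX pools 4, 5 and 6, against 13.0, 10.1 and 11.1 CPM in untreated pools 1, 2 and 3. The groups did not overlap, but RUX pool 4 and untreated pool 1 differed by less than the counting error of either. The log2 fold change was 0.28 ± 0.18 (SE; 95% interval −0.11 to 0.66). Tbxas1, the thromboxane synthase gene 1832 bases beyond the end of Parp12, stood at 0.28 ± 0.16 on the same scale (SE; edgeR adjusted p = 1), with 21.1 to 23.4 CPM in RUX pools and 17.1 to 20.8 CPM in untreated pools.

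Parp11 encodes an enzyme that adds single ADP-ribose units and lies at chr6:127453723-127494239 (plus strand, 9 exons). It measured 21.4, 29.4 and 26.2 CPM in RUX pools 4, 5 and 6, against 20.4, 24.8 and 18.8 CPM in untreated pools 1, 2 and 3. RUX pool 4 fell inside the untreated range, and untreated pool 2 inside the RUX range. Its log2 fold change was 0.26 ± 0.18 (SE; 95% interval −0.11 to 0.64), and 0.16 without RUX pool 5. The counted exons begin 96 bases after the downstream start site, whose window held neither motif. Counts on them cannot show which of the 2 starts a transcript came from. The nearest gene after it, Cracr2a, was at 0.04 ± 0.34 on the log2 scale (SE; edgeR adjusted p = 1).

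Parp10, an enzyme of the same kind known as a binding partner of MYC, lies at chr15:76232995-76243440 (minus strand, 21 exons). It measured 18.4, 24.1 and 22.0 CPM in RUX pools 4, 5 and 6, against 18.5, 19.4 and 20.6 CPM in untreated pools 1, 2 and 3. RUX pool 4 was the lowest of all 6 pools, and RUX pools 5 and 6 were the highest. The log2 fold change was 0.14 ± 0.16 (SE, 95% interval −0.21 to 0.49), 0.05 without RUX pool 5 and 0.25 without RUX pool 4. It was 0.28 without both untreated pool 3 and RUX pool 4. That alternative was chosen after seeing the data and takes away the lowest RUX and the highest untreated value. Its neighbours Plec and Grina stood at 0.24 ± 0.16 and 0.19 ± 0.18 on the log2 scale (SE; edgeR adjusted p = 1 each).

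Counted together, 5 of the 6 interferon-linked genes had a log2 fold change above 0, against 49.2% of all tested genes, and their median was 0.20, against −0.00356 over all tested genes. For 2 of the 6 (Parp12 and Parp14) the RUX pools lay entirely above the untreated pools, a pattern that held for 2.99% of all tested genes. Since this contrast guided the choice of the genes, nothing is read from either count. The number above 0 was 4 to 6 over the settings tried and the median was 0.10 to 0.29. The lowest median came without RUX pool 5. The highest came without untreated pool 3 and RUX pool 4, an alternative chosen after seeing the data. By edgeR's quasi-likelihood test with Benjamini-Hochberg adjustment, 0 of the 8 members and 0 of 13411 genes (0.0%) passed an adjusted p of 0.05, and DESeq2 and limma-voom also called 0. An unadjusted p under 0.05 was reached by 254 genes (1.89%) in edgeR, 281 in DESeq2 and 262 in limma-voom.

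Parp1 and Parp2 both had log2 fold changes below 0. Parp1 (chr1:180568975-180601254, plus strand, 23 exons) measured 254.5, 288.4 and 324.5 CPM in RUX pools 4, 5 and 6, against 326.5, 290.4 and 369.4 CPM in untreated pools 1, 2 and 3. The groups overlapped, with RUX pool 4 lowest and untreated pool 3 highest. Its log2 fold change was −0.19 ± 0.15 (SE; 95% interval −0.52 to 0.15), or −0.09 without RUX pool 4 and −0.09 without untreated pool 3. Leaving out both, an alternative chosen after seeing the data that takes away the lowest RUX and the highest untreated value, gave −0.01. Parp2 (chr14:50807946-50821300, plus strand, 16 exons) measured 74.0, 76.2 and 71.9 CPM in RUX pools 4, 5 and 6, against 73.7, 72.0 and 84.5 CPM in untreated pools 1, 2 and 3. Apart from untreated pool 3, its pools lay within a few CPM of each other, and the log2 fold change was −0.05 ± 0.14 (SE; 95% interval −0.35 to 0.24), or 0.02 without untreated pool 3. The nearest genes, Lin9 beyond Parp1 and Tep1 beyond Parp2, were at −0.03 ± 0.16 and 0.12 ± 0.16 on that scale (SE; edgeR adjusted p = 1 each). Parp2 had the smallest spread of the members, its highest pool being 1.18 times its lowest, against 2.04 times for Parp14 and 1.31 to 1.56 times for the other 6.

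The rest of the PARP family, which was listed by name but with earlier results of these data known, mostly had log2 fold changes below 0. Of 9 genes, 0 passed the edgeR test in either direction, 1 had a positive and 8 a negative log2 fold change, and the median was −0.11. Parp3 counts among the negative ones at a fold of 0.998, which is almost no change. For 2 of the 9 the RUX pools lay entirely below the untreated pools, against 3.25% of all tested genes. Tiparp, a PARP induced by the aryl hydrocarbon receptor, had 15.8, 17.8 and 15.5 CPM in RUX pools 4, 5 and 6, against 26.8, 18.9 and 18.5 CPM in untreated pools 1, 2 and 3, or −0.38 ± 0.18 on the log2 scale (SE; edgeR adjusted p = 1). Zc3hav1, which encodes the antiviral RNA-binding protein ZAP and is itself inducible by interferon, had 34.8, 32.1 and 34.4 CPM in RUX pools 4, 5 and 6, against 39.0, 40.6 and 39.8 CPM in untreated pools 1, 2 and 3, or −0.24 ± 0.14 on the log2 scale (SE; edgeR adjusted p = 1). The difference between this list and the interferon-linked genes was not tested. The tankyrase genes Tnks and Tnks2 were at −0.14 and −0.06, and Parp3, Parp4, Parp6, Parp8 and Parp16 at 0.00, −0.08, −0.12, −0.11 and 0.07.

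**Figure D3:**
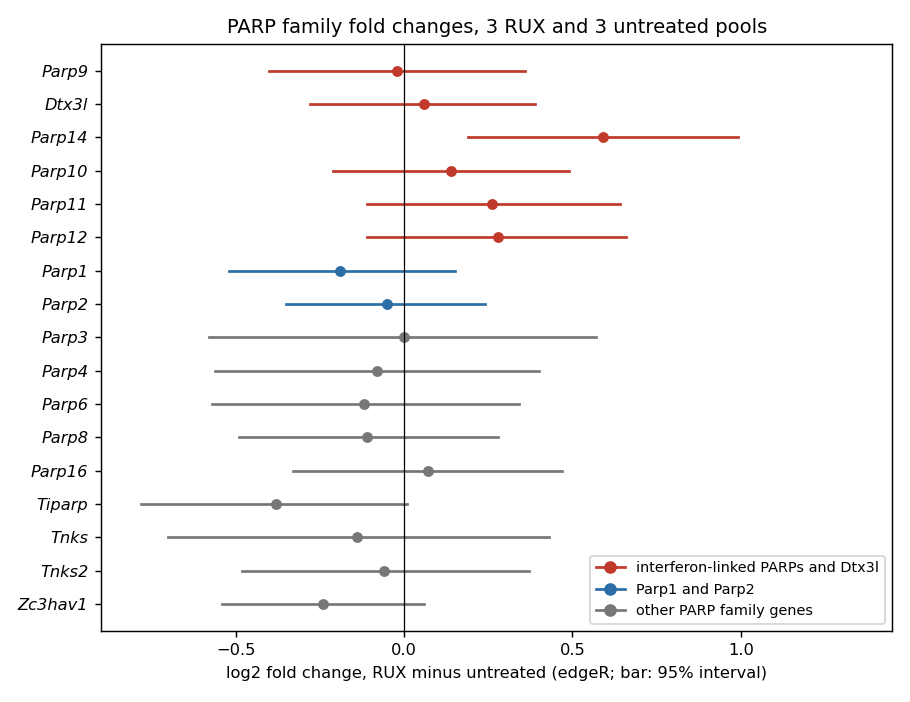
Log2 fold change, RUX minus untreated, of the PARP family genes and Dtx3l, with 95% intervals from edgeR over 3 RUX and 3 untreated pools; red marks the interferon-linked genes, blue Parp1 and Parp2, grey the other family members. The interval of Parp14 (0.19 to 0.99) is the one that lies wholly off 0, but Parp14 was chosen with this difference known. The intervals are adjusted neither for that choice nor for the number of genes, and none of these genes passed the test after adjustment.

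The genes that carry the interferon signal were read from a list of 10, from the receptors to the feedback protease. Of these 10, 0 passed the edgeR test, 6 had positive and 4 negative log2 fold changes, and the median was 0.01. The transcription factor genes Stat2 and Irf9 were at −0.01 ± 0.18 and 0.11 ± 0.14 on the log2 scale (SE). Irf9 was the 1 gene of the 10 whose RUX pools lay entirely above the untreated pools (2.99% of all tested genes), with 51.6, 56.3 and 51.5 CPM in RUX pools 4, 5 and 6, against 48.8, 51.0 and 47.6 CPM in untreated pools 1, 2 and 3 (edgeR adjusted p = 1). Usp18, an interferon-induced protease gene that restrains the type I receptor, measured 15.9 ± 1.49 CPM in RUX pools and 12.7 ± 1.91 CPM in untreated pools (SD, n = 3 each), with overlap, or 0.32 ± 0.18 on the log2 scale (SE; edgeR adjusted p = 1).

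RUX pool 5 and untreated pool 3 set much of the spread among the interferon-linked genes. RUX pool 5 was the highest of the 6 pools for 4 of the 6 genes, as it was for 9.78% of all tested genes, and untreated pool 3 was the lowest for 4 of the 6, as it was for 21.6% of all tested genes. The mean deviation of the 6 genes from their own averages, in log2(CPM + 1), was −0.05, 0.25 and 0.11 in RUX pools 4, 5 and 6, against −0.03, −0.06 and −0.23 in untreated pools 1, 2 and 3. RUX pool 4 lay between untreated pools 1 and 2, so the groups overlapped in this average. Kit, the gene of the sort marker, was at 295 to 416 CPM in RUX pools and at 409, 471 and 196 CPM in untreated pools 1, 2 and 3. Untreated pool 3 also had the lowest sum of 10 stem cell markers. That sum was 258.9 to 278.4 CPM in RUX pools and 158.9 to 250.7 CPM in untreated pools, without overlap; 9 of the 10 markers were tested, 7 of them had a positive log2 fold change, and none was at 0 in every pool. Untreated pool 3 was also the highest pool for the summed neutrophil markers (8474 to 12176 CPM in RUX pools and 7456, 6844 and 15845 CPM in untreated pools 1, 2 and 3). Mpo made up the largest part of that sum. Of the 10 neutrophil markers, 4 (Elane, Mpo, Prtn3 and Ctsg) had a positive and 6 a negative log2 fold change. Their mean deviation, which weighs the 10 alike, was −1.56, 0.43 and 1.18 in untreated pools 1, 2 and 3. In RUX pools 4, 5 and 6 it was 0.65, 0.13 and −0.82. Untreated pool 3 was the highest pool for monocyte and dendritic markers too (777.9 to 1057 CPM in RUX pools and 1050, 1041 and 1452 CPM in untreated pools 1, 2 and 3). Of these 10 markers, 2 had a positive and 8 a negative log2 fold change, and 0 passed the edgeR test. Eosinophil markers were high in RUX pool 4 as well, with sums of 226.2, 90.4 and 48.8 CPM in RUX pools 4, 5 and 6, against 44.8, 39.6 and 234.6 CPM in untreated pools 1, 2 and 3. All 8 lymphoid and B cell markers had a negative log2 fold change and 0 passed the edgeR test, with sums of 588.9 to 783.1 CPM in RUX pools and 747.8 to 859 CPM in untreated pools. The sums of erythroid and of T and NK cell markers overlapped between the groups too. The part of these marker differences in the PARP values was not tested, and in bulk RNA fewer cells of a type and less RNA per cell cannot be told apart. Without untreated pool 3 the log2 fold change of Parp14 was 0.52 and that of Parp12 was 0.26. Sums of plasmacytoid dendritic markers, cells that make much interferon, overlapped at 150 to 222.8 CPM in RUX pools and 163.1 to 190.7 CPM in untreated pools. Tcf4 and Bst2 made up most of these sums. Of the 6 markers, 3 had a positive and 3 a negative log2 fold change, from −0.71 (Siglech) to 0.37 (Irf7). Siglech, at 27 to 58 read pairs, measured 0.535 to 1.32 CPM in RUX pools and 1.43 to 1.59 CPM in untreated pools. It was the 1 marker of the 6 without overlap, and RUX pools lay entirely below for 3.25% of all tested genes.

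**Figure D4:**
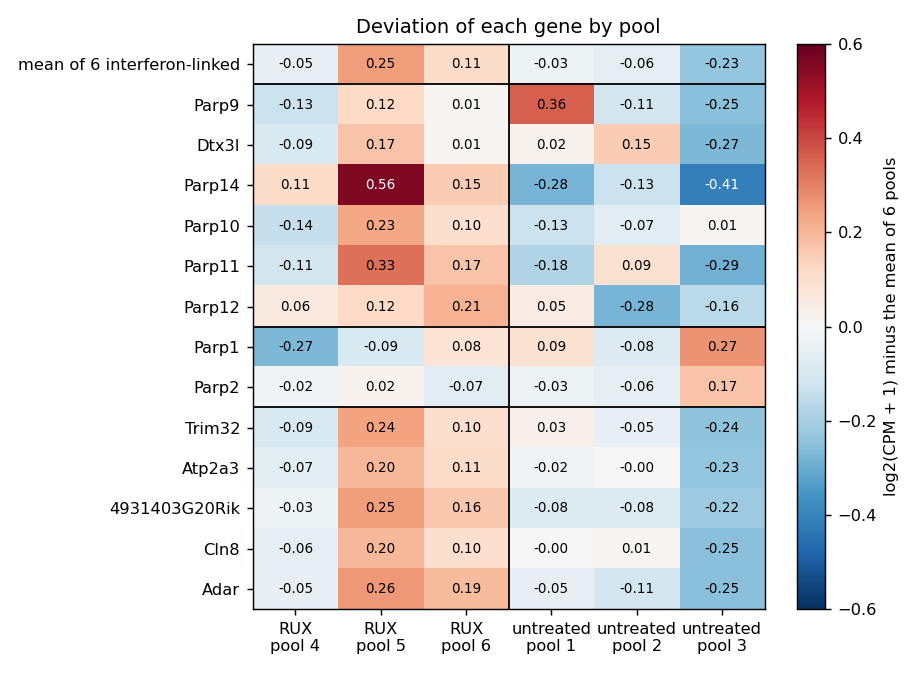
Deviation of each gene from its mean over 6 pools, in log2(CPM + 1), with RUX pools on the left and untreated pools on the right; rows are the mean of the 6 interferon-linked genes, the 8 members and the 5 other genes with the most similar profile. RUX pool 5 (0.25 in the mean row) and untreated pool 3 (−0.23) are the extremes, and Parp14 spans −0.41 to 0.56.

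The 5 non-member genes whose profile over the 6 pools was most like the mean of the 6 interferon-linked genes were Trim32, Atp2a3, 4931403G20Rik, Cln8 and Adar. Likeness was the root-mean-square difference of the centred log2(CPM + 1) values, which was 0.029, 0.032, 0.0327, 0.0396 and 0.0428 in that order, against a median of 0.233 over the other tested genes and 0.15 for a gene with no deviation at all. The members themselves lay at 0.101 (Parp11) to 0.193 (Parp14), and Parp2 and Parp1 at 0.2 and 0.266. Adar, which encodes an RNA-editing enzyme with an interferon-inducible long form, measured 58.0 ± 6.45 CPM in RUX pools and 47.7 ± 3.32 CPM in untreated pools (SD, n = 3 each), a log2 fold change of 0.28 with an edgeR adjusted p of 1. Trim32 encodes an E3 ubiquitin ligase, Atp2a3 a calcium pump of the endoplasmic reticulum and Cln8 a membrane protein of the same compartment. 4931403G20Rik was scarce, at 0.45 ± 0.138 CPM in RUX pools and 0.214 ± 0.0668 CPM in untreated pools. Its log2 fold change was 1.07, against 0.16 to 0.28 for Trim32, Atp2a3, Cln8 and Adar. At such low levels the 1 CPM added before the log shrinks deviations, so its likeness depends on that scale.

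Totals were 46027491 to 48747137 counted read pairs in RUX pools and 27354768 to 38691826 in untreated pools, and a floor of 3 counts corresponded to 0.0595 to 0.0695 CPM and 0.0768 to 0.107 CPM. No member came near it, since the fewest read pairs of any member in any pool were 358.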

How the data were processed

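RNA of 6 pools was measured by sequencing of SMART-Seq mRNA LP libraries, per the labels' protocols. STAR was the aligner and mm10 the genome, per the submitters' processing notes, which name no version. The authors deposited unnormalized counts, each the number of read pairs on a gene's exons, made by featureCounts 2.0.3 with UCSC's mm10 genes and no strand option, per the file headers. The summed exon length per gene, also deposited by the authors, was used for levels per kb. Columns were matched to pools by the library names in the labels. Pools came from different mice, and p-values reflect the variation from pool to pool.

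For testing, 13411 genes passed filterByExpr at its defaults (edgeR 4.0.16, R 4.3.3). Libraries were scaled by TMM, and edgeR tested treatment, two-sided, by its quasi-likelihood test with Benjamini-Hochberg adjustment over all tested genes at 0.05; the steps were tested on simulated data. CPM uses the TMM-scaled size of each library. The SE of a log2 fold change was derived from the change and its F value. Means carry SDs; counting errors and floors (3 counts) cover counting error only, and amplified reads without stated molecular identifiers are not independent molecules.

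The members and gene lists were chosen with earlier results of these data known. Named were the 8 members, the listed PARP, ADP-ribose removal, Deltex and interferon signalling genes, genes next to a member, and the 5 genes with the most similar profile. Not every listed interferon signalling gene is reported here by name, though the counts cover the whole list. Adprs is listed under its older symbol Adprhl2. Neighbouring genes near or below the filter are mostly not described. Promoter windows are from RefSeq (GRCm38.p6). Alternatives were DESeq2 size factors or upper-quartile scaling, testing all genes with a count, a filter of 1 CPM in at least 3 pools, DESeq2 1.42.0, limma-voom 3.58.1, robust fitting, removal of Lars2 and Rn45s, each pool left out, and adjusted p under 0.01 or 0.1. Leaving out untreated pool 3 with RUX pool 4 was added after seeing the data.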

Additional observations from a re-analysis of the deposited data

How the results depend on the processing

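No paired analysis was possible because the pool numbers 1 to 3 and 4 to 6 are not shared between the groups. The count of genes past the adjusted threshold was 0 in every setting except that without a low-count filter, which called 14 genes (4 higher with RUX), 0 of them a member; that setting tests more genes. With each pool left out in turn the number of interferon-linked genes with a log2 fold change above 0 was 4 to 6, and their median was 0.10 to 0.28. Parp10, Parp11, Parp12 and Parp14 kept a positive and Parp1 a negative log2 fold change in the 15 other fits, at 0.05 to 0.28, 0.16 to 0.40, 0.21 to 0.38, 0.42 to 0.68 and −0.28 to −0.01, while the sign of Parp9 turned in 3 fits, that of Dtx3l in 2 and that of Parp2 in 2. Of 120 such values for single members, 118 moved by less than the SD between pools; the others were Parp10 (0.28) and Parp1 (−0.01) without untreated pool 3 and RUX pool 4. The scaling alternatives moved no member by more than 0.01 on the log2 scale. The 95% intervals of all members but Parp14 included 0. These intervals rest on 3 pools a group and are adjusted neither for the number of genes nor for the choice of the members. Whether differences of these sizes could be detected was therefore not tested.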

Other observations

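Genes that remove ADP-ribose and the relatives of Dtx3l were measured as the counterparts of these enzymes. Of 7 genes for ADP-ribose removal, 0 passed the edgeR test, 3 had positive and 4 negative log2 fold changes, and the median was −0.03. Parg, the main hydrolase of ADP-ribose chains, measured 75.7 ± 6.32 CPM in RUX pools and 84.7 ± 12.6 CPM in untreated pools (SD, n = 3 each), a log2 fold change of −0.16 ± 0.15 (SE). Adprhl2, which releases ADP-ribose from serine, measured 65.9 to 69.5 CPM in RUX pools and 57.4 to 64.6 CPM in untreated pools, without overlap, at 0.17 ± 0.14 (SE; edgeR adjusted p = 1). It was the 1 gene of the 7 whose RUX pools lay entirely above the untreated pools, as for 2.99% of all tested genes. Macrod1, Macrod2, Oard1, Adprh and Adprm were at 0.15, 0.06, −0.13, −0.03 and −0.18 on the same scale.

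Of the 4 other Deltex genes, Dtx1 was below the filter at up to 0.393 CPM, and the 3 tested ones had log2 fold changes of 0.30 ± 0.19 (Dtx2), 0.06 ± 0.15 (Dtx3) and −0.27 ± 0.22 (Dtx4; SE), with 0 past the edgeR test. Per kb of exon, Dtx3 (16.5 CPM per kb over the 6 pools) stood above Dtx3l (11.9), and Dtx2 and Dtx4 (5.30 and 4.11) below it. Among interferon receptor genes, Ifngr1 was at 305 CPM in RUX pools and 337 CPM in untreated pools, a log2 fold change of −0.14 ± 0.14 (SE), and Ifnar1, Ifnar2 and Ifngr2 were at −0.09, 0.03 and 0.02. The kinase genes Jak1 and Tyk2, which relay the type I signal, were at 0.01 and −0.04. Rpph1, whose first base lies 174 bases from Parp2 in the opposite direction, gave few counts in these mRNA libraries. It measured 1.76 to 2.78 CPM in RUX pools and 0.857 to 2.20 CPM in untreated pools.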
